A study of Homo sapiens with 28 samples.

Results

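The HOX cluster genes are the 39 protein-coding genes, of 19821 on chromosomes 1 to 22 and X, whose symbol is HOX followed by the letter A, B, C or D and a number. The rule for membership uses the symbol alone and no peak value. The family itself was chosen with earlier results of these data known. They lie in 4 clusters, given in the human build GRCh38. HOXA (11 members) spans 107 kb of chromosome 7, from 27092993 to 27200091. HOXB (10 members) spans 200 kb of chromosome 17, from 48528526 to 48728750. HOXC (9 members) spans 117 kb of chromosome 12, from 53938831 to 54056030. HOXD (9 members) spans 103 kb of chromosome 2, from 176087487 to 176190907.

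Chromatin immunoprecipitation followed by sequencing was done in T47D, an established luminal breast cancer line. Antibodies to ZHX2, to CTCF and to histone H3 acetylated at lysine 27 (H3K27ac) were used in normoxia and in hypoxia. Another set of cells, all in hypoxia, was immunoprecipitated for Flag, with ZHX2 labelled WT or PA. The growth protocol names lentiviral infection with hygromycin or puromycin selection, without saying which vector went into which cells, and the labels give neither the oxygen level nor the hours of hypoxia. Each of these 8 groups had 2 samples and 1 deposited peak list, so no value below has a spread between replicates, no test was made and read depth is unknown. The 12 samples without antibody have no list of their own used here. Luminal identity was visible in acetylation. H3K27ac lay at an end of 11 of 12 luminal marker genes in normoxia and 12 of 12 in hypoxia. It lay at 2 of 7 basal and 2 of 10 immune or stromal markers in either condition. The shares over all protein-coding genes were 64.4% in normoxia and 65.2% in hypoxia.

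HOX genes encode homeodomain transcription factors that set position along the body axis. Within a cluster, the genes with low numbers act towards the head and those with high numbers towards the tail, and the order on the chromosome follows the order along the body. In adult cells, stretches of a cluster are kept silent by Polycomb proteins and others stay active with acetylated histones, with CTCF sites commonly lying at the borders. ZHX2 is itself a zinc finger and homeobox protein. CTCF anchors chromatin loops, and H3K27ac is typical of promoters and enhancers in use.

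A member was counted for a list if any of its peaks came to 1 kb or less from either outer annotated end of the gene. Starts and ends of shorter transcripts inside the gene were not counted. ZHX2 lay at 26 of the 39 members in normoxia, against 29.7% of all protein-coding genes. In hypoxia it lay at 21 members, against 56.3% of all genes. The HOX share was thus above that of all genes in normoxia (66.7%) and close to it in hypoxia (53.8%). CTCF lay at 24 members in normoxia (61.9% of all genes) and 21 in hypoxia (59.6% of all genes). H3K27ac lay at 18 members in normoxia (64.4% of all genes) and 19 in hypoxia (65.2% of all genes). Both acetylation counts are under 50% of the members. WT Flag peaks lay at 13 members (58.5% of all genes) and PA Flag peaks at 12 (50.2% of all genes). Neighbouring members share peaks, and HOXC4, HOXC5 and HOXC6 share the annotated end at position 54016888, so members are not independent of each other.

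Members ranged from no peak to a peak in every list. HOXA6, HOXD3, HOXD4, HOXD9 and HOXD12 had no gene-end peak in any of the 8 lists. HOXC4, HOXC5, HOXC6, HOXC10, HOXC11 and HOXC13 had one in all 8. All 6 are in the same cluster, and 4 of the 5 without any peak are HOXD genes.

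**Figure D1:**
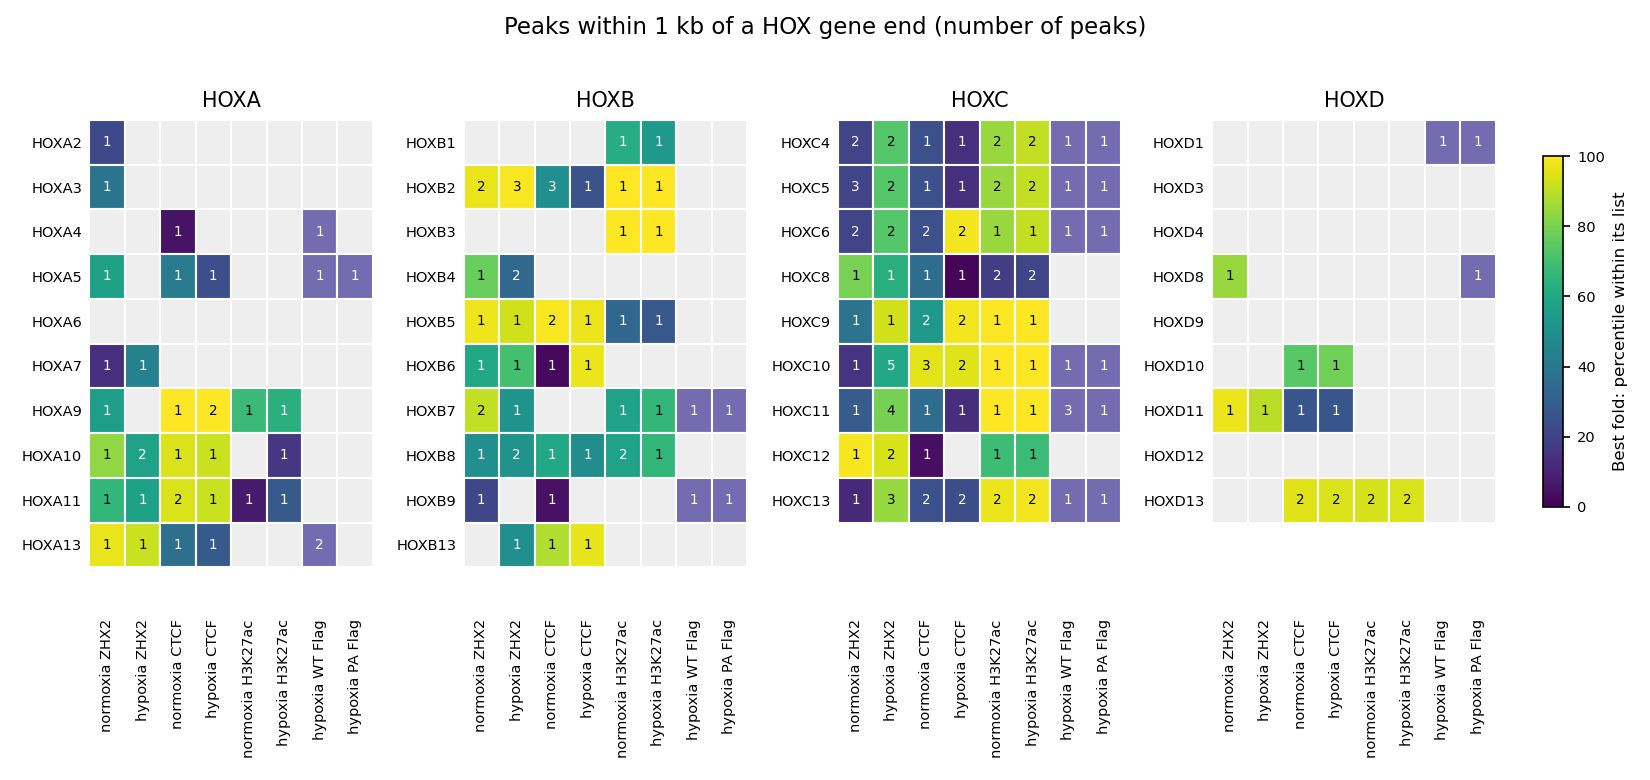
Number of peaks within 1 kb of a gene end for the HOX genes named on the vertical axis in each of the 8 peak lists (horizontal axis), 1 panel per cluster. Colour gives the percentile of the member's best fold enrichment within that list and is read down a column only, Flag lists without fold are violet, and grey means no peak. The HOXC panel is filled in nearly every cell and the HOXD panel is mostly grey.

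By place in the cluster, the 8 anterior members (numbers 1 to 3) held the fewest gene-end ZHX2 and CTCF peaks. ZHX2 lay at 3 of the 8 in normoxia (HOXA2, HOXA3 and HOXB2) and at HOXB2 in hypoxia, and CTCF at HOXB2 in either condition. Of the 15 central members (numbers 4 to 8), ZHX2 lay at 12 in normoxia and 10 in hypoxia, and CTCF at 9 and 8. Of the 16 posterior members (numbers 9 to 13), ZHX2 lay at 11 and 10, and CTCF at 14 and 12. CTCF thus had its highest share of members at the posterior end. Acetylation was less graded by place: 3 of 8 anterior members in either condition, 7 of 15 central members in either condition, and 8 then 9 of 16 posterior members. HOXC has no anterior member, so place and cluster cannot be told apart in these counts.

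**Figure D2:**
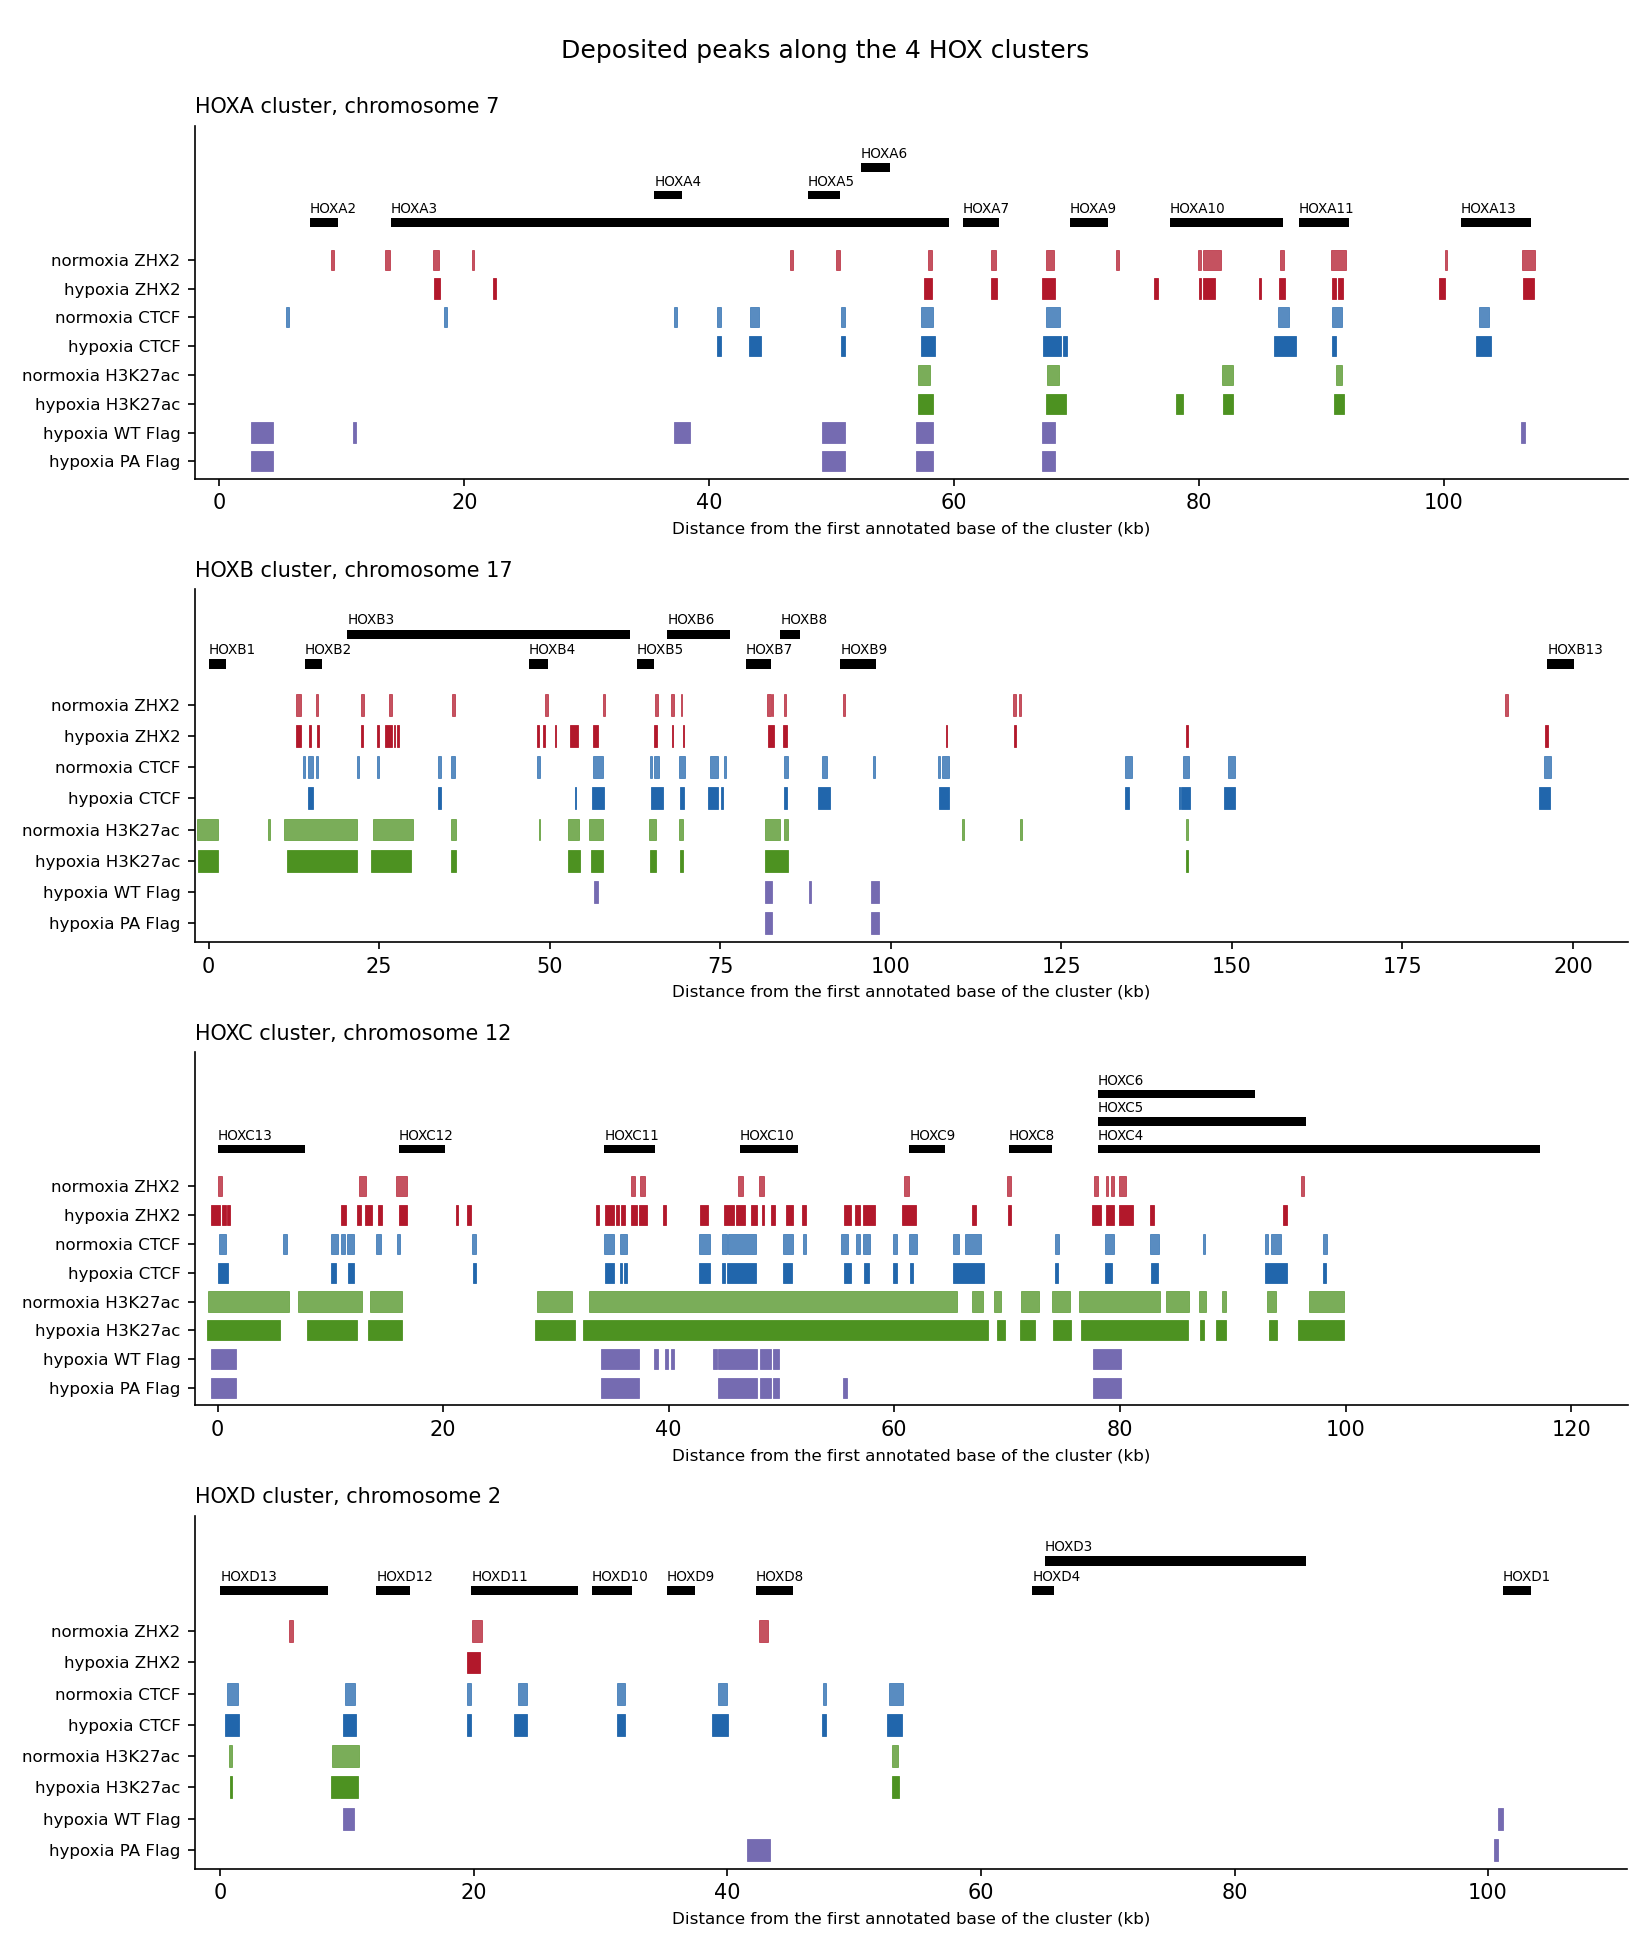
Peaks of the 8 lists (vertical axis, 1 line per list) along each HOX cluster, with distance from the cluster's first annotated base in kb (horizontal axis) and the named genes as black bars above. Green acetylated domains cover most of HOXC from HOXC13 to HOXC4, a block at HOXB2 and HOXB3, and little of HOXA and HOXD.

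HOXC was the acetylated cluster. H3K27ac peaks covered 59.1% of its span in normoxia and 60.9% in hypoxia, against 14.1% and 13.4% of HOXB, 3.08% and 4.67% of HOXA, and 2.74% and 2.81% of HOXD. A single broad domain ran over HOXC11, HOXC10 and HOXC9, 32632 bp long in normoxia (53971731 to 54004362, fold enrichment over background 47.1) and 35888 bp in hypoxia (53971240 to 54007127, fold 44.0). Folds here and below are the authors' values, which rank peaks within 1 list and are not compared between lists. A further domain covered HOXC13 (fold 24.3 in normoxia, 23.7 in hypoxia). Another covered the shared end of HOXC4, HOXC5 and HOXC6 (15.3 and 16.6). HOXC8, which lies between these domains, had weaker peaks at its ends (3.09 and 2.99).

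ZHX2 lay at an end of all 9 HOXC members in both conditions. Its strongest gene-end peak in the cluster was at HOXC12, from 53954640 to 53955617 in normoxia (fold 11.5, above 98.6% of the normoxia list) and from 53954940 to 53955587 in hypoxia (fold 6.19, above 93.8% of the hypoxia list). In normoxia the other 8 members had best folds of 2.55 (HOXC13) to 4.29 (HOXC8), so HOXC12 stood apart within that list. In hypoxia the next was HOXC9, with 5.93. HOXC10 had 1 gene-end ZHX2 peak in normoxia and 5 in hypoxia, HOXC11 had 1 and 4, and HOXC13 had 1 and 3. The additional peaks lay in acetylated chromatin in the same condition, as did nearly all ZHX2 peaks of the cluster.

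The start shared by HOXC4 and HOXC5 carries ZHX2, H3K27ac and both Flag forms. The RefSeq promoter window (GRCh38.p14, chr12:54016638-54016937, plus strand, 250 bp before to 50 bp after the start of transcription) is shown because it is the HOXC window under a normoxia ZHX2 peak (fold 2.75; 4.07 in the hypoxia list). Capitals mark the core of the hypoxia response element, ACGTG, searched on both strands.
HOXC4 and HOXC5: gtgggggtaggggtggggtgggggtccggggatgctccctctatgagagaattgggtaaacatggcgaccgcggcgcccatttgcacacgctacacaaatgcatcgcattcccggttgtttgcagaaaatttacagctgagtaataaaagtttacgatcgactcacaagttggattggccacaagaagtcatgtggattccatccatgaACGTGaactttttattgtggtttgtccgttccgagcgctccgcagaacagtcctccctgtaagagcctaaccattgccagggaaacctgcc

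HOXA held ZHX2 without acetylation along most of its length. ZHX2 peaks numbered 16 in normoxia and 14 in hypoxia, and H3K27ac peaks 4 and 5. Of the ZHX2 peaks, 3 of 16 and 4 of 14 overlapped H3K27ac. In normoxia 12 of the 16 overlapped neither CTCF nor H3K27ac (37.0% of the whole list), and in hypoxia 9 of 14 (21.9% of the whole list). HOXA13, the posterior end of the cluster, had the strongest ZHX2 peak at a HOXA gene end in either list (27199386 to 27200406, fold 8.23 in normoxia; 27199438 to 27200354, fold 5.73 in hypoxia) and no acetylation peak in either. HOXA10 had ZHX2 at its start in both lists (folds 4.59 and 3.52) and a wider ZHX2 peak inside the gene, from 27173338 to 27174797 in normoxia (fold 6.63) and from 27173333 to 27174267 in hypoxia (fold 4.02). An H3K27ac peak at its end at 27171130 to 27171685 made it the member with H3K27ac in hypoxia alone (fold 2.87).

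A pair of HOXA sites was covered by all 8 lists. The first runs from 27149886 to 27151446, inside the long HOXA3 gene and between HOXA6 and HOXA7. There ZHX2 had folds of 4.03 in normoxia and 4.60 in hypoxia, CTCF 189 and 129, and H3K27ac 15.4 and 13.4, the highest acetylation fold of the cluster in each list. The other runs from 27160184 to 27161715 on the HOXA9 side, with CTCF folds of 489 and 333, the former the highest CTCF fold in any HOX cluster in normoxia and the latter the highest in HOXA in hypoxia. The HOXA7 gene lies between these sites. The strongest acetylation at a HOXA gene end also lay at the latter site, counted for HOXA9 (9.07 and 6.43).

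Sequences of 3 HOXA promoter windows are given, all on the minus strand of GRCh38.p14 and read 5′ to 3′ along the gene. The HOXA3 window (chr7:27150901-27151200) is the only 1 of 27 HOX windows overlapped by all 8 lists, and the HOXA10 window (chr7:27179812-27180111) holds a CTCF core under CTCF peaks, so both were picked after their values were seen. The HOXA13 window (chr7:27200042-27200341) is the HOXA window under the strongest normoxia ZHX2 peak. Capitals mark matches, on either strand, to ACGTG or to a short CTCF core (CC, any 3 bases, AG, any 2 bases, GGC).
HOXA3: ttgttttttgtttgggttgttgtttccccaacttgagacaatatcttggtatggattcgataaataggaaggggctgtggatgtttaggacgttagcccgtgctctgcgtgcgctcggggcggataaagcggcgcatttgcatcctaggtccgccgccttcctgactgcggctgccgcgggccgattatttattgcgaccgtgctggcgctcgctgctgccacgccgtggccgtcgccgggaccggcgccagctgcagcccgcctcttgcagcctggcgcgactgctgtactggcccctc
HOXA10: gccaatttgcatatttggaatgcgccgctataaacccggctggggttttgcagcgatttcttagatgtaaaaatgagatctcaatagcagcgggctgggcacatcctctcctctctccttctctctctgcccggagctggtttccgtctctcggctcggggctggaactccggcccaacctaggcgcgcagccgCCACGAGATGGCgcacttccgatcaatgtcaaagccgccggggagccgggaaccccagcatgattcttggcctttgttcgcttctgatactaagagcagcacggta
HOXA13: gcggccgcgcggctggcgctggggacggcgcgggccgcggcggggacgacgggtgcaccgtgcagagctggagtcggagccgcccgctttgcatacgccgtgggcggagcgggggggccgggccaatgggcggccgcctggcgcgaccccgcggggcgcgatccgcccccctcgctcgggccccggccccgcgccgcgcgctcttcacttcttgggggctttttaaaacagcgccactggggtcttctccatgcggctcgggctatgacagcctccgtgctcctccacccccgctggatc
In the HOXA10 window the match CCACGAGATGGC covers bases 195 to 206, which is 27179906 to 27179917 on chromosome 7. The summit of the normoxia CTCF peak (fold 209) lay 1 bp from that match, and the summit of the hypoxia CTCF peak (fold 166) lay inside it. The ZHX2 peaks of both conditions cover it too. The core occurs in 10.6% of all 35116 promoter windows and in 4 of the 27 HOX windows (HOXA10, HOXA11, HOXD1 and HOXD10). Of those 4, HOXA10 alone lies under a CTCF peak, and of the 3 HOX windows under a normoxia CTCF peak, HOXA10 alone holds the core. The HOXA3 and HOXA13 windows hold no match to either motif. The HOXA13 window has the highest GC content of the HOX windows, 76.3%.

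In HOXB, the strongest acetylation lay at the anterior end, and ZHX2 lay on acetylated chromatin there and at HOXB5, HOXB7 and HOXB8. An H3K27ac domain over HOXB2 and the nearby end of HOXB3 was the strongest of the cluster (48539518 to 48550270, fold 41.9 in normoxia; 48539946 to 48550277, fold 34.7 in hypoxia). ZHX2 lay 653 bp from the end of HOXB2 in normoxia (48541385 to 48542002, fold 8.09) and 625 bp from it in hypoxia (48541362 to 48542030). The hypoxia peak had a fold of 11.2 and was the strongest ZHX2 peak in any HOX cluster in hypoxia. HOXB5 had the highest normoxia ZHX2 fold of the cluster (48593909 to 48594357, fold 9.10; 5.94 in the hypoxia list), and its CTCF fold of 372 was the highest at a HOXB gene end in normoxia. HOXB4, HOXB6, HOXB7 and HOXB8 had ZHX2 in both lists at best folds of 2.97 to 5.57. HOXB1 and HOXB3 had acetylation at an end in both conditions and no ZHX2 at an end in either. Inside the long HOXB3 gene, ZHX2 of both lists lay at several sites. Among them were 48550814 to 48551251, without H3K27ac, and 48554407 to 48555462, with H3K27ac of both conditions. None of the HOXB members has a promoter window in the reference table that a ZHX2 peak overlaps, so no HOXB sequence is shown.

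HOXB13, which encodes a posterior factor and stands far from the rest of its cluster, was the only member with a gene-end ZHX2 peak in the hypoxia list alone (28.4% of all genes). That peak (48724502 to 48724815, fold 3.31) lay on CTCF peaks of both conditions with folds of 138 and 218, and no H3K27ac peak lay at HOXB13 in either. Its fold was near the middle of the hypoxia list, above 49.3% of it.

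HOXD was nearly bare of ZHX2. It held 3 ZHX2 peaks in normoxia and 1 in hypoxia, against 8 CTCF peaks in each condition and 3 H3K27ac peaks in each. HOXD11 had the strongest (176107350 to 176108158, fold 8.49 in normoxia; 176106913 to 176107951, fold 5.39 in hypoxia), with a CTCF peak of low fold at the same start (7.89 and 7.24). HOXD13 had the strongest acetylation of the cluster (20.4 and 19.0), with a weaker peak between genes far from it (8.23 and 6.83), together with the strongest gene-end CTCF of HOXD (224 and 193), and ZHX2 at neither end. Inside HOXD13, a normoxia ZHX2 peak lay from 176092919 to 176093202, downstream of its promoter window (176092471 to 176092770). HOXD10 had CTCF alone, with folds of 68.1 and 88.8.

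Sequences of 2 HOXD windows on the plus strand are given, HOXD8 (chr2:176129455-176129754) because this gene had ZHX2 in the normoxia list alone, and HOXD11 (chr2:176107030-176107329), picked after its values were seen, because it lies under the only hypoxia ZHX2 peak of the cluster.
HOXD8: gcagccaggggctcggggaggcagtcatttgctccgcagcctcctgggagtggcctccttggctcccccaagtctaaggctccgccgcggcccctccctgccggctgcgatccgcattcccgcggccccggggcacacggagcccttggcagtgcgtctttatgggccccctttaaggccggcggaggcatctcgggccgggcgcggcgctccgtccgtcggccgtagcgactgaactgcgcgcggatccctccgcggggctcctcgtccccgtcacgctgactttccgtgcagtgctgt
HOXD11: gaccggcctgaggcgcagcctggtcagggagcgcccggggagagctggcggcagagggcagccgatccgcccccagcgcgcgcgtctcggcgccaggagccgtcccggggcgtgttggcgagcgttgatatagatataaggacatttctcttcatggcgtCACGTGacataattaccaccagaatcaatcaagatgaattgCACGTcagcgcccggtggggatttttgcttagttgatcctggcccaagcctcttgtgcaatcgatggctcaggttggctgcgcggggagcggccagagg
HOXD11 holds 3 matches to ACGTG, 2 of which overlap because CACGTG reads the same on both strands, and HOXD8 holds none. The normoxia ZHX2 peak at HOXD8 lies downstream of its printed window, from 176129988 to 176130723.

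The comparison of normoxia with hypoxia asked whether ZHX2 at these clusters differed between oxygen conditions. The whole ZHX2 list was 2.22 times longer in hypoxia, with 32343 peaks against 14586. Inside the 4 HOX clusters the numbers were 73 and 50, a ratio of 1.46. The clusters differed among themselves: HOXA had 16 peaks in normoxia and 14 in hypoxia, HOXB 17 and 22, HOXC 14 and 36, and HOXD 3 and 1. HOXC was the only cluster whose ratio (2.57) was as high as that of the whole list. With the hypoxia list reduced by score to the length of the normoxia list, an alternative chosen after seeing the data, HOXC held 15 hypoxia peaks, HOXA 9, HOXB 8 and HOXD 1. With both lists limited to peaks with −log10 q of 5 or more, HOXC held 8 normoxia and 25 hypoxia peaks, a ratio of 3.12 against 2.41 for the whole lists. Reduction to equal length fixes the whole-list ratio at 1.00, and the HOXC ratio was then 1.07. The size of the HOXC ratio thus depended on how the lists were matched.

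**Figure D3:**
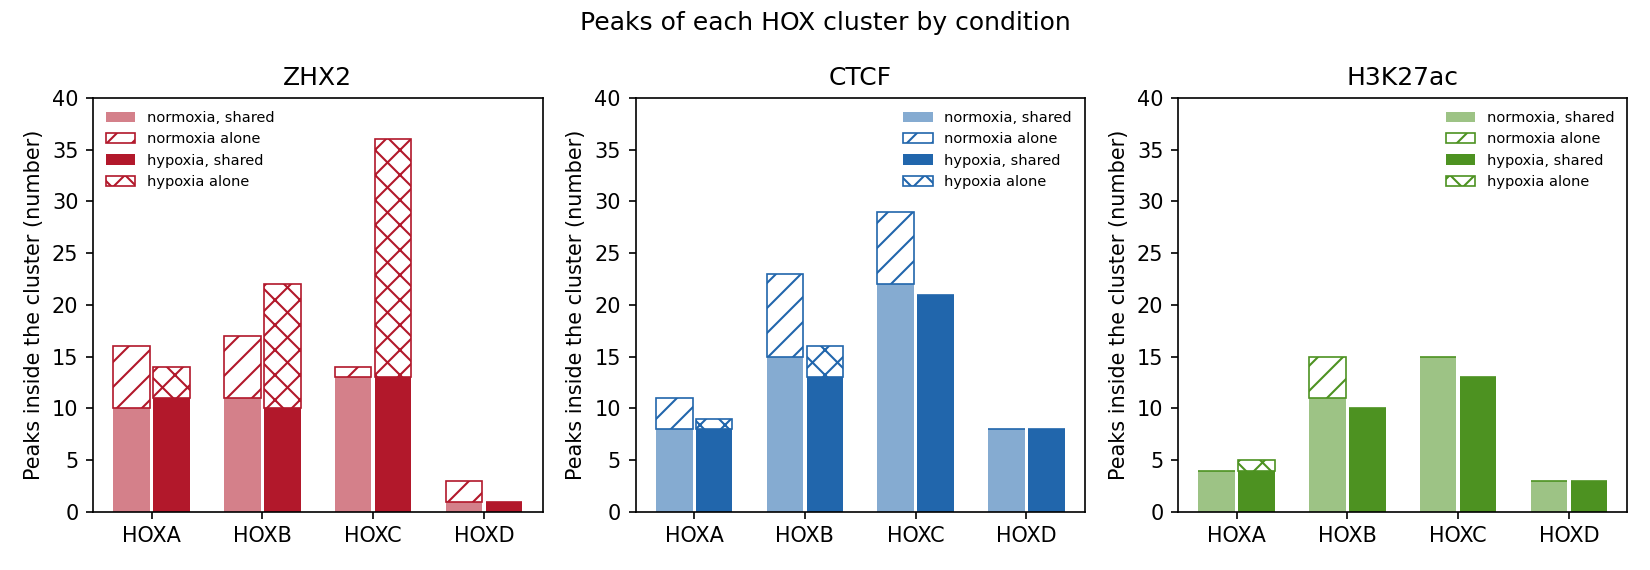
Number of peaks inside each HOX cluster (vertical axis) for ZHX2, CTCF and H3K27ac, with the left bar of each pair for normoxia and the right bar for hypoxia. Solid parts are peaks that overlap a peak of the other condition and hatched parts are peaks in 1 list alone. For ZHX2 in HOXC, 23 of the 36 hypoxia peaks are in that list alone, while 1 of the 14 normoxia peaks is.

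At gene ends, 20 members had ZHX2 in both lists (27.8% of all genes), 6 in the normoxia list alone (1.85% of all genes) and HOXB13 in the hypoxia list alone. The 6 were HOXA2, HOXA3, HOXA5, HOXA9, HOXB9 and HOXD8. None of these 6 genes is in HOXC. Their folds were mostly near or below the median of the list, which was 3.35: 2.80 at HOXB9 (48621506 to 48621752), 2.81 at HOXA2 (27102111 to 27102349), 3.12 at HOXA3 (27106498 to 27106907), 3.46 at HOXA9 (27166217 to 27166462) and 3.51 at HOXA5 (27143389 to 27143642). HOXD8, at 4.73, was above 84.7% of its list. These calls rest on the 1 kb limit at gene ends. Inside HOXA3, ZHX2 of both lists lay on its printed promoter window (folds 4.03 and 4.60). The site beside HOXA9 that all 8 lists cover also holds ZHX2 of both conditions.

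Of the 73 hypoxia ZHX2 peaks in the clusters, 35 overlapped a normoxia peak (47.9%, 95% Wilson interval 36.9 to 59.2%, which covers counting error over peaks only). In the whole hypoxia list 27.4% did. With lists of equal length the share in the clusters was 78.8% (26 of 33). The share was 11 of 14 in HOXA and 13 of 36 in HOXC. The 38 hypoxia-alone peaks lay mostly in HOXC (23) and HOXB (12), with 3 in HOXA. Of the 23 in HOXC, 20 lay on H3K27ac and 13 on CTCF of the same condition. Of the 3 in HOXA, none lay on either. The part of read depth in the different lengths of the ZHX2 lists was not tested.

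ZHX2 peaks of HOXC and HOXA differed in what they lay on in either condition. In HOXC 12 of 14 normoxia peaks (85.7%, interval 60.1 to 96.0%) and 31 of 36 hypoxia peaks (86.1%, 71.3 to 93.9%) overlapped H3K27ac. In HOXA the shares were 18.8% (6.59 to 43.0%) and 28.6% (11.7 to 54.6%). The whole lists gave 56.7% and 72.9%. The intervals cover counting error over peaks only. Many HOXC peaks share 1 broad acetylated domain and are not independent, so the intervals are no test between clusters. HOXB lay between them at 64.7% and 63.6%, and none of the HOXD ZHX2 peaks overlapped H3K27ac. The covered share of each span, given above, moves with these shares, and its part in them was not tested. Overlap with CTCF varied less among the 3 clusters with more than 3 ZHX2 peaks: 4 of 16 in HOXA, 5 of 17 in HOXB and 5 of 14 in HOXC in normoxia, and 4 of 14, 9 of 22 and 17 of 36 in hypoxia. In HOXD it was 0 of 3 and 1 of 1. Over the 4 clusters it was 28.0% (17.5 to 41.7%) in normoxia, below the 43.6% of the whole list, and 42.5% in hypoxia, close to 45.6%.

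**Figure D4:**
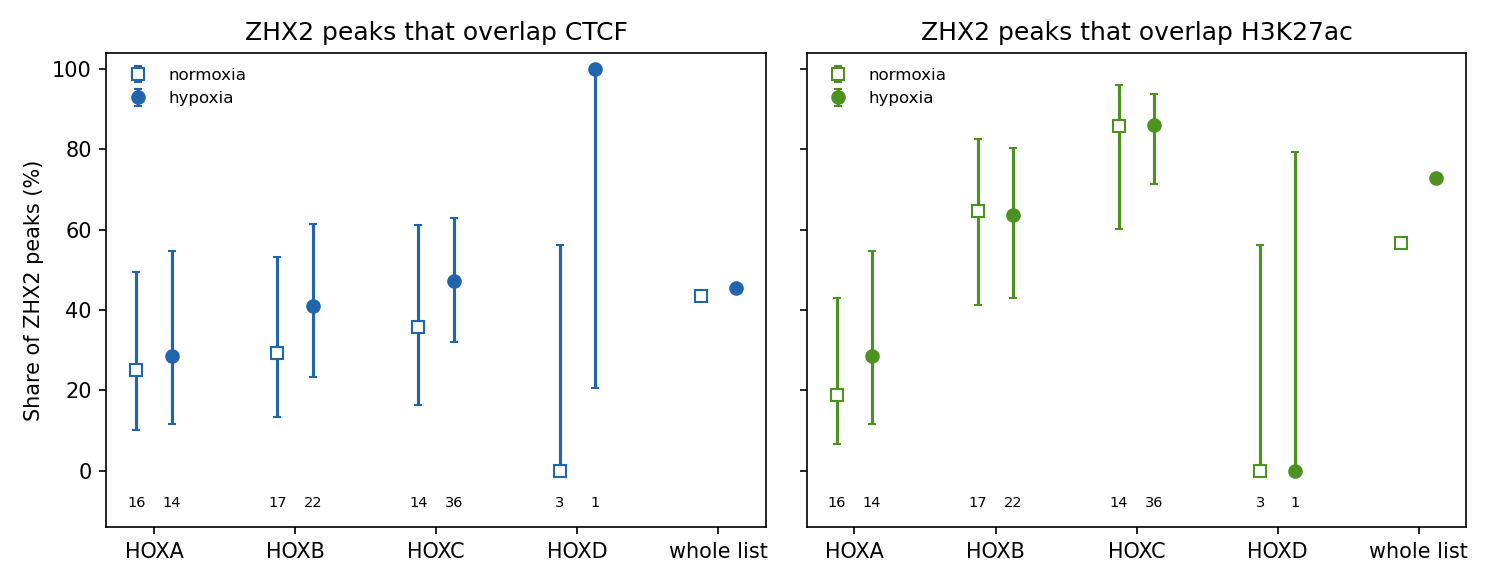
Share of ZHX2 peaks in percent (vertical axis) that overlap a CTCF peak (left) or an H3K27ac peak (right) of the same condition, by HOX cluster and for the whole list. Open squares are normoxia, filled circles hypoxia, bars are 95% Wilson intervals over peaks, and the number under each point is the number of ZHX2 peaks. The acetylation shares of HOXC lie above 80% and those of HOXA below 30%.

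Where ZHX2 and CTCF overlapped in HOXB, their summits lay close together. The median distance between the ZHX2 summit and the nearest CTCF summit was 37.00 bp over 5 peaks in normoxia and 80.00 bp over 9 in hypoxia. In HOXC it was 351.0 bp over 5 peaks and 270.0 bp over 17. The whole lists gave 174.0 and 141.0 bp.

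Members with CTCF in both lists numbered 21 (56.7% of all genes). All 8 normoxia CTCF peaks of HOXD overlapped a hypoxia peak, and over the 4 clusters 53 of 71 normoxia peaks did (74.6%, against 82.3% of the whole list) and 50 of 54 hypoxia peaks (92.6%, against 93.0%). Members with CTCF in the normoxia list alone were HOXA4, HOXB9 and HOXC12 (5.19% of all genes), at low folds of 4.43, 4.30 and 4.26. No member had CTCF in the hypoxia list alone (2.86% of all genes). The strong sites were all shared: 19 normoxia peaks of the clusters fell in the top 10% of the CTCF list by the authors' peak score and each overlapped a hypoxia peak, as did the 16 of the hypoxia list. Of the other 52 normoxia peaks, 34 overlapped one. ZHX2 overlapped 5 of the 19 strong normoxia CTCF peaks (HOXA 3, HOXB 1, HOXC 1, HOXD 0) and 9 of the 16 in hypoxia (2, 4, 3 and 0). These counts were not made for the top 10% of the whole CTCF lists, so they are not read as particular to the HOX clusters.

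The strongest CTCF peak at a gene end lay at HOXA9 in HOXA and at HOXB5 in HOXB, where the hypoxia peak (fold 238) also reaches HOXB6. In HOXC it lay at HOXC10 in normoxia (232) and at HOXC9 in hypoxia (267), in HOXD at HOXD13. The highest normoxia CTCF fold inside HOXC (269) lay at no gene end. The hypoxia peak counted for HOXC9 is 2703 bp wide (54004064 to 54006766). In normoxia a 487 bp peak (fold 22.8) was counted there. HOXC held 3 of the strong CTCF peaks described above in each condition, and each overlapped a peak of the other condition. In normoxia 1 of the 3 lay at a gene end (folds of the 3 from 169 to 269). In hypoxia all 3 did (folds from 200 to 267). The HOXC strong sites were thus shared, and the conditions differed in which of them came within reach of a gene end. The part of peak width in this HOXC difference was not tested. For acetylation, 18 members had it in both lists (63.8% of all genes), HOXA10 in hypoxia alone (1.45% of all genes) and none in normoxia alone (0.580% of all genes). Every one of the 15 normoxia and 13 hypoxia H3K27ac peaks of HOXC overlapped a peak of the other condition, as did 89.1% and 80.6% of the whole lists.

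The Flag comparison set WT against PA ZHX2, both in hypoxia. The WT list was longer, with 31278 peaks against 16019, and 15163 PA peaks overlapped a WT peak, each with the same start and end. How the Flag lists were made is not stated, so their overlap is not read as a measure of reproducibility. Inside the HOX clusters there were 23 WT and 15 PA peaks, of which 12 were identical. Flag lists hold positions alone, with no fold.

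At gene ends 11 members held both forms (49.7% of all genes), among them HOXA5, HOXB7, HOXB9, HOXC4, HOXC5, HOXC6, HOXC10, HOXC11, HOXC13 and HOXD1. HOXA4 and HOXA13 held WT alone (8.79% of all genes). HOXD8 held PA alone (0.479% of all genes), in a peak from 176129053 to 176130825 that contains its normoxia ZHX2 peak. At HOXD1, which is counted under both forms, the WT peak (176188298 to 176188652) and the PA peak (176187961 to 176188270) lie side by side without overlap. HOXA4 and HOXD1 had Flag peaks and no ZHX2 peak in either condition.

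Overlap of hypoxia ZHX2 peaks with Flag peaks was most frequent in HOXC. Of the 36 there, 16 lay on WT Flag and 16 on PA Flag. In HOXB 2 of 22 overlapped WT and 1 of 22 PA, and in HOXA 3 of 14 and 2 of 14. Over the 4 clusters 28.8% overlapped WT, against 54.2% in the whole list, and 26.0% overlapped PA, against 44.2%. All 10 WT and all 7 PA Flag peaks of HOXC lay on hypoxia H3K27ac, as did 72.3% and 84.4% of the whole lists. HOXA5, with ZHX2 in normoxia alone, lies under a Flag peak of both forms in hypoxia (27142188 to 27144094) that covers the position of its normoxia ZHX2 peak.

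Merging the ZHX2, CTCF and Flag peaks gave 115 separate sites in the clusters. Broad H3K27ac peaks were left out of the merging and counted for each site they overlapped, so places with H3K27ac alone are no site here. Counted that way, 24 sites belonged to 1 list and 6 to all 8. The 6 were the pair in HOXA described above and sites at HOXC13 (53938211 to 53940483), HOXC11 (53972800 to 53976166), HOXC10 (53983234 to 53986694) and the shared end of HOXC4, HOXC5 and HOXC6 (54016391 to 54019966). HOXB and HOXD had none.

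The clusters also hold transcripts without a protein, of which 22 were listed. ZHX2 lay at an end of 10 of them in normoxia (45.5%, against 29.7% of all protein-coding genes) and 14 in hypoxia (63.6%, against 56.3%). HOTAIR, a long RNA gene that overlaps the start of HOXC11, had 1 gene-end ZHX2 peak in normoxia and 4 in hypoxia, and HOTTIP shares the HOXA13 peak. The 4 with ZHX2 in hypoxia alone (18.2%, against 28.4% of all protein-coding genes) were HOXC-AS2 and the microRNA genes MIR10A, MIR196A2 and MIR196B. The hypoxia peak from 27169333 to 27169670 contains the whole MIR196B hairpin (27169480 to 27169563) beyond the end of HOXA10, while the nearest normoxia ZHX2 peak lies 3018 bp away. MIR196A2, inside the HOXC acetylated domain, lies 752 bp from a hypoxia peak and 4460 bp from a normoxia peak. MIR10A near HOXB4 lies 355 and 1572 bp from them. The mature RNAs of these genes are shown because MIR196A2 and MIR196B, from different clusters, share the seed AGGUAGU (bases 2 to 8, in capitals, from RefSeq). MIR196A1 in HOXB encodes the same hsa-miR-196a-5p, and no peak of any list overlaps it. Its hairpin lies 4049 bp from a hypoxia and 10738 bp from a normoxia ZHX2 peak.
hsa-miR-196a-5p: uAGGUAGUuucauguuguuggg
hsa-miR-196b-5p: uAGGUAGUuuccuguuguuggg
hsa-miR-10a-5p: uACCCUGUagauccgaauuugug
The lists give peaks near these genes and no RNA level.

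Genes whose proteins act with HOX proteins or on the HOX clusters were counted in the same way. Of 9 TALE cofactors, which bind DNA with HOX proteins, ZHX2 lay at 5 in normoxia and 7 in hypoxia, with MEIS1 among those in hypoxia alone. Of 23 Polycomb genes it lay at 12 and 21. The 9 in hypoxia alone included EZH2, the H3K27 methyltransferase (fold 5.95), and SUZ12, its partner (3.84). Of 12 Trithorax and MLL partners it lay at 6 and 12, and KMT2A, the MLL1 methyltransferase, was in both lists (14.7 and 12.8). The shares over all genes were 29.7% in normoxia, 56.3% in hypoxia and 28.4% in hypoxia alone. The hypoxia-alone shares were 22.2% of the TALE, 39.1% of the Polycomb and 50.0% of the Trithorax and MLL genes. None of these 3 lists had a gene with ZHX2 in normoxia alone, which is close to the 1.85% of all genes. Among 54 other homeobox genes, ZHX2 lay at 25 in normoxia (46.3%) and 35 in hypoxia (64.8%), with 4 in normoxia alone (CDX1, PDX1, GSX1 and IRX1). Acetylation was also less frequent there than over all genes, at 25 and 27 of 54. No test of these differences was made.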

How the data were processed

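Each immunoprecipitated group came with 1 list of peak positions from the authors. GRCh38 (hg38) and the tools MACS2, Bowtie2 and cutadapt are named per the submitters' processing notes; versions, pooling of samples, use of inputs and depth are not given in the sources used here. The score, the fold (ratio over background) and the −log10 q of ZHX2, CTCF and H3K27ac peaks are the authors' deposited values, and Flag lists hold positions only. Gene positions and promoter windows came from RefSeq GRCh38.p14, which gives 19821 protein-coding genes; 20 members have a window. Peaks sharing at least 1 bp were called overlapping. The members and gene lists were chosen with earlier results of these data known. By rule, members with a ZHX2, CTCF or H3K27ac peak in 1 list alone, members with a Flag peak and the member of highest fold per cluster, antibody and condition were named; promoter windows were printed by the rules stated beside them. Alternatives covered windows, thresholds and overlap rules. Overlap steps were tested on simulated peaks. Python 3.11.15 was used. The 4 Flag-titled samples without antibody were kept apart. Some single genes are counted but not reported here by name.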

Additional observations from a re-analysis of the deposited data

How the results depend on the processing

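Of 89 alternatives, 69 stayed within 1.5 times the count or inside the interval of the share reported, and 20 did not. For annotated starts of transcription, which not all members have, shares of members were compared in place of counts. Of the 89, 4 were added after seeing the data. With the upper 50% of each list by score, normoxia ZHX2 lay at 17 members (19.2% of all genes), CTCF at 10 in normoxia and 11 in hypoxia, and the clusters held 24 normoxia and 36 hypoxia ZHX2 peaks, 30 and 27 CTCF peaks and 17 and 16 H3K27ac peaks. Annotated starts of transcription were given for 20 members. Within 1 kb of them, CTCF lay at 8 members in normoxia (59.8% of all genes) and 6 in hypoxia (57.9%). H3K27ac lay at 5 in each (65.7% and 66.5%). ZHX2 lay at 12 of the 20 in normoxia (29.2%) and 8 in hypoxia (58.2%). In this setting the hypoxia ZHX2 share was thus below that of all genes. A 3 kb window gave 21 members with WT Flag (62.1% of all genes) and 19 with PA Flag (53.3%). Where −log10 q had to reach 5, the clusters held 32 normoxia ZHX2 peaks. With the hypoxia ZHX2 list reduced to the normoxia length, the clusters held 33 hypoxia peaks, HOXC 15, and 78.8% of hypoxia peaks were shared; the members with a hypoxia peak numbered 16 (39.5% of all genes). With midpoints within 250 bp, 71.0% of hypoxia H3K27ac peaks were shared. Stricter lists hold fewer peaks by construction. No paired analysis was possible because each group has 1 list and no value per sample, so no replicate could be left out either.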

Other observations

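The core of the hypoxia response element, ACGTG on either strand, occurs in 15 of the 27 HOX promoter windows (55.6%) and in 21.4% of all 35116 windows. The 27 windows belong to 20 members, with several for HOXA3 and the same window for HOXC4 and HOXC5, and they are not independent. A match is a description of these letters, and binding of a hypoxia factor was not measured. No test was made.

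The neighbours of the clusters were also counted. Of 14 listed genes flanking them, ZHX2 lay at 4 in normoxia (28.6%, against 29.7% of all genes) and 7 in hypoxia (50.0%, against 56.3%). CALCOCO1 had it in normoxia alone (fold 2.67), which is 7.14% against 1.85% of all genes. SKAP2, HIBADH, TTLL6 and LNPK had it in hypoxia alone, which is 28.6% against 28.4% of all genes. H3K27ac lay at 9 of the 14 in either condition (64.3%, against 64.4% and 65.2% of all genes).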
